A study of Mus musculus with 12 samples.

Results

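Bone morphogenetic proteins (BMPs) are secreted ligands of the TGF-beta superfamily. They bind pairs of type I and type II receptors, which phosphorylate Smad1, Smad5 and Smad9, and these enter the nucleus with Smad4 and switch on target genes. The Id genes, which encode partners that block basic helix-loop-helix (bHLH) transcription factors, are standard targets of the pathway, and Smad6 and Smad7 are inhibitory Smads that BMP signalling itself induces and that dampen it. In the inner ear, BMPs take part in patterning the cochlear duct, and Id proteins are known to oppose Atoh1, the bHLH factor that starts hair cell differentiation.

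The genes described here are the ligands Bmp2, Bmp4 and Bmp7, the extracellular antagonist Nog (noggin), the inhibitory Smads Smad6 and Smad7, and the targets Id1, Id2, Id3 and Id4. They were chosen by gene name, and each name matched 1 Ensembl identifier, so that 10 of the 55416 genes counted are covered. RNA-seq counts came from 12 libraries of sorted cells from the organ of Corti of mice at postnatal day 0, the day of birth. Of these, 6 were pools of inner hair cells (IHCs), the cells that pass the sound signal to the auditory nerve, and 6 were pools of outer hair cells (OHCs), which amplify sound mechanically. All animals are labelled WT, and all carried the sorting reporters Atoh1-GFP, which marks hair cells, and Insm1-GFP-Cre with R26-TdTomato, which marks cells in which the Insm1 locus has driven Cre. IHCs were taken as cells with GFP alone and OHCs as cells with GFP and tdTomato. The 2 groups share genotype and age and differ by the sort gate, and the IHC gate rests on the absence of tdTomato. Per the study's methods a pool combines several newborn mice of either sex.

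All members lie on annotated autosomal loci (GRCm39 coordinates, GENCODE vM39), and the counts are of reads on their exons. Bmp2 lies at chr2:133394079-133404816 on the plus strand, Bmp4 at chr14:46620250-46636745 on the minus strand and Bmp7 at chr2:172709805-172782410 on the minus strand. Nog lies at chr11:89191464-89193158 on the minus strand and Smad6 at chr9:63860341-63929793 on the minus strand. Id1 lies at chr2:152566218-152579544 on the plus strand, Id2 at chr12:25143798-25147282 on the minus strand, Id3 at chr4:135870808-135873066 on the plus strand and Id4 at chr13:48414558-48419502 on the plus strand. Among annotated genes with counts in these files, the antisense gene Gm49291 shares 10.3% of the exonic bases of Id4, with at most 57 counts in any library, and Gm15222 shares 22.5% of those of Bmp4, with 0 counts.

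The sequences just upstream of 4 target genes are shown because BMP Smads act on such regions. Smad6 and Id2 are among the genes that were high together in 1 IHC library below, by counts scaled to library size. Id4 and Id3 lead the Id genes by mean level per length in IHCs, although Id3 was above Id2 in only 2 of 6 IHC libraries. RefSeq promoters (GRCm38.p6) were matched for 5 of the 10 members, namely Bmp4, Smad6, Id2, Id3 and Id4. Each line holds the 250 bases before the annotated start, read 5′ to 3′ on the strand of the gene, and capitals mark matches to 3 motifs that Smad proteins are known to bind. These are GGCGCC, which reads the same on both strands, then GGAGCC, which reads GGCTCC on the other strand, and lastly CAGAC, which reads GTCTG on the other strand. The lines cover chr9:64022060-64022309 (minus strand) for Smad6, chr12:25096093-25096342 (minus) for Id2, chr4:136143572-136143821 (plus) for Id3 and chr13:48260866-48261115 (plus) for Id4.
Smad6: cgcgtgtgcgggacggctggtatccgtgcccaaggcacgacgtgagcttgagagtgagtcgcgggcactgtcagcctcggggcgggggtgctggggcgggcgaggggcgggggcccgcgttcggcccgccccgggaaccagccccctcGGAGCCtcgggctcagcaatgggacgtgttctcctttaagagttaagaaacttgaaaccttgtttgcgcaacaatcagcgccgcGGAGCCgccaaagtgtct
Id2: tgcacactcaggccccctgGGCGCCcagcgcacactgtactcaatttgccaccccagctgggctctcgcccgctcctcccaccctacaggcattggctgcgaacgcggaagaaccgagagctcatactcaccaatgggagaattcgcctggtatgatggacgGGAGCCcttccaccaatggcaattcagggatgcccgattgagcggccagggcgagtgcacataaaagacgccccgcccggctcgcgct
Id3: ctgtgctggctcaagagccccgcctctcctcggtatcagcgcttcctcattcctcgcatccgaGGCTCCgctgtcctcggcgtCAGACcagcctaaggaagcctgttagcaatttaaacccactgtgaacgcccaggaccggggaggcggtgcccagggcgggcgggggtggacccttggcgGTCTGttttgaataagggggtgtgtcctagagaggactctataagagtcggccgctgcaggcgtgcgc
Id4: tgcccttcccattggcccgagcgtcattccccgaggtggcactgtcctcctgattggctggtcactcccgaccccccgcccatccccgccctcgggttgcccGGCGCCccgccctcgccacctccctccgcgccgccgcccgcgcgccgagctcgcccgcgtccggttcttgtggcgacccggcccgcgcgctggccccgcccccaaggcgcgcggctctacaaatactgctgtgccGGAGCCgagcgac
Positions count back from -1, the base before the start, to the first base of a match. Smad6 had GGAGCC at -102 and -18, Id2 had GGCGCC at -231 and GGAGCC at -88, and Id4 had GGCGCC at -148 and GGAGCC at -13. Id3 had GGCTCC at -187, CAGAC at -167 and GTCTG at -68. The Bmp4 promoter, not printed, had 1 GGCTCC at -32. No match on these lines overlapped another. The motifs are common: of 32851 promoters of the same length, 9.59% held GGCGCC, 26.0% held GGAGCC or GGCTCC, and 42.2% held CAGAC or GTCTG. A match is a description of letters and was not tied to any binding.

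The depth of a library, as its sum of counts on genes, was 31490204 to 44017309 in the IHC group and 29564827 to 39121988 in the OHC group, while levels are given as CPM, counts scaled to a common library size after TMM normalization. Markers fit the labels in that 4 of 4 IHC markers (Otof, Slc17a8, Tbx2, Fgf8) were IHC-enriched and 4 of 5 OHC markers were OHC-enriched, Ikzf2 being the exception and Insm1, whose locus set the gate, among the 4. Before the results, 2 libraries need to be named. In IHC replicate 1, ribosomal RNA took 56.9% of the counts, against 21.5% to 37.0% in the other IHC libraries, its TMM factor was 0.486, and it was the highest IHC library for 23.5% of all 13269 tested genes. In OHC replicate 3, the summed level of 14 endothelial markers was 322 CPM, against 34.3 to 95.3 CPM in the other OHC libraries and 0.523 to 13.05 CPM in IHC libraries. All comparisons were therefore also made without each of them. The test was edgeR's quasi-likelihood F-test, with Benjamini-Hochberg adjusted p over all tested genes, the threshold was 0.05, and a log2 fold change above 0 means a higher level in OHCs. In bulk pools, fewer cells of a type and less RNA per cell cannot be told apart.

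Of the 10 members, 8 passed edgeR's filter on low counts, and Bmp4 and Nog did not. The members OHC-enriched were 2, the ligands Bmp2 and Bmp7, beside 2.44% of all tested genes, and 0 were IHC-enriched, beside 3.81%. None of the 4 Id genes and neither inhibitory Smad passed the threshold with all 12 libraries. At an unadjusted p under 0.05, the count of members higher in IHCs was 0, and edgeR's exact test also called 0 of them. DESeq2 called 0 too, but it gave no p-value for Id1, Smad7, Nog and Bmp4 and so could not call these. The plot of all members by library shows the spread behind these calls.

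**Figure D1:**
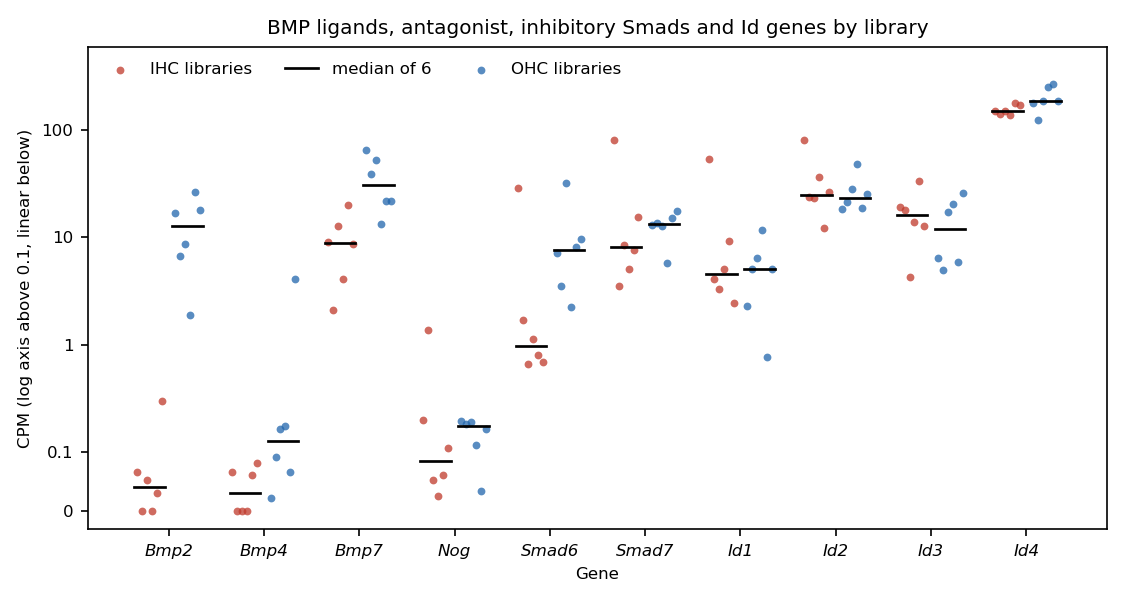
CPM of the 10 genes (x axis) in each of the 6 IHC and 6 OHC libraries (points), with a line at the median of 6; the y axis is logarithmic above 0.1 CPM and linear below. Bmp2 is at 0 to 0.300 CPM in IHC libraries and at 1.89 to 26.6 CPM in OHC libraries, and single points stand high for Smad6, Smad7, Id1 and Id2 among IHC libraries.

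Bmp2, a ligand closely related to Bmp4, was nearly absent from IHC pools and present in every OHC pool. Its level was 0.0654, 0, 0.0523, 0, 0.0306 and 0.300 CPM in IHC replicates 1 to 6, which is 0 to 11 counts. In OHC replicates 1 to 6 it was 16.9, 6.74, 8.71, 1.89, 26.6 and 17.9 CPM, or 65 to 798 counts. No IHC library reached the lowest OHC library, as for 2.22% of all tested genes, and within OHCs the level ranged widely, lowest in replicate 4. The mean rose from 0.0747 ± 0.113 CPM in IHCs to 13.1 ± 9.01 CPM in OHCs (SD, n = 6 each), a log2 fold change of 7.39 (SE 1.16, 95% interval 4.98 to 9.80, edgeR adjusted p = 4.67e-04). The call held when each of the 12 libraries was left out in turn (7.06 to 8.79, adjusted p = 1.80e-04 to 0.00194).

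Endothelial markers moved in the same direction as Bmp2, so their values stand beside it. Of 14 endothelial markers, 9 were OHC-enriched (Pecam1, Cdh5, Cldn5, Kdr, Tek, Ptprb, Adgrf5, Flt1 and Erg), 2 were tested and not called and 3 were not tested. Cldn5, Ptprb and Adgrf5 had 0 counts in all 6 IHC libraries. The sum of all 14 markers in OHC replicates 1 to 6 was 89.4, 34.3, 322, 95.3, 52.8 and 85.9 CPM. The order of the libraries differed from that of Bmp2: Bmp2 was highest in replicate 5, the second lowest in endothelial sum, and in replicate 3, with the highest sum, it was at 8.71 CPM. Without OHC replicate 3 the log2 fold change of Bmp2 was 7.47. The part of endothelial RNA in the level of Bmp2 was not tested.

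Bmp7, a ligand of another subgroup of the family, was detected in all pools and was higher in OHCs. The levels were 9.16, 2.13, 12.8, 4.08, 20.1 and 8.61 CPM in IHC replicates 1 to 6. In OHC replicates 1 to 6 they were 65.0, 39.5, 53.0, 13.3, 21.8 and 21.9 CPM. The groups overlap only through OHC replicate 4, and the other 5 OHC libraries lay above all IHC libraries. The means were 9.48 ± 6.45 CPM in IHCs and 35.8 ± 20.3 CPM in OHCs (SD, n = 6 each), a log2 fold change of 1.91 (SE 0.54, 95% interval 0.79 to 3.04, edgeR adjusted p = 0.0376). This call is close to the threshold. It was lost without IHC replicate 1, 2, 4 or 6 or OHC replicate 1, 2 or 3, with log2 fold changes of 1.65 to 1.89 and edgeR adjusted p = 0.0522 to 0.1075 in these 7 fits, and it held in the other 5. The direction was the same in all 12 fits, whose log2 fold changes ran from 1.65 to 2.26.

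Bmp4, a close relative of Bmp2, was at the limit of detection. No IHC library had more than 3 counts (at most 0.0817 CPM). In OHC replicates 1 to 6 there were 1, 3, 6, 6, 2 and 174 counts, so that replicate 6, at 4.07 CPM, held nearly all of them and the other 5 were at 0.0216 to 0.174 CPM. Bmp4 did not pass the filter. In the fit without the filter its log2 fold change was 4.39 (SE 1.89, edgeR adjusted p = 0.116), and nearly all of its counts come from OHC replicate 6.

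Nog encodes a secreted protein that binds BMPs and keeps them from their receptors. Its level was 0.196, 1.37, 0.0523, 0.0252, 0.0613 and 0.109 CPM in IHC replicates 1 to 6, with 56 counts in replicate 2 and 1 to 4 in the others. OHC libraries had 1 to 9 counts, or 0.0334 to 0.194 CPM. Nog did not pass the filter, and the fit without it gave a log2 fold change of -1.03 (SE 1.57, edgeR adjusted p = 0.690). A difference between IHCs and OHCs was not detectable at this depth.

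Smad6, the inhibitory Smad that acts mainly on BMP receptors and Smads, was low in 5 IHC libraries and higher in OHC libraries, while the remaining IHC library was above 5 of the 6 OHC libraries. Its level was 29.0 CPM in IHC replicate 1 and 1.71, 0.654, 1.13, 0.796 and 0.681 CPM in replicates 2 to 6. In OHC replicates 1 to 6 it was 7.22, 3.51, 32.3, 2.27, 8.21 and 9.76 CPM. All 6 OHC libraries lay above IHC replicates 2 to 6, and only OHC replicate 3 lay above IHC replicate 1. With all libraries the log2 fold change was 0.91 (SE 0.98, 95% interval -1.14 to 2.95, edgeR adjusted p = 0.631). Without IHC replicate 1 it was 3.40 (SE 0.86, 95% interval 1.60 to 5.20, edgeR adjusted p = 0.0211). In that fit Bmp2 and Smad6 were the 2 members OHC-enriched, beside 2.90% of the genes tested in it, and Bmp7 was at an edgeR adjusted p of 0.0522. Without OHC replicate 3 the log2 fold change was 0.09, and without both libraries it was 2.63 (edgeR adjusted p = 0.1005). The call of Smad6 therefore rests on which of these libraries are included. OHC replicate 3 also had the highest endothelial sum, while IHC replicate 1, where Smad6 was at 29.0 CPM, had the lowest of all 12 libraries (0.523 CPM). Among the 12 libraries OHC replicate 3 also had the highest sum of 8 immediate early genes (689 CPM, against 319 to 448 CPM in the other OHC libraries). Among OHC libraries it had the highest greater epithelial ridge sum (417 CPM against 71.8 to 265) and the lowest hair cell marker sum (4105 CPM against 5043 to 5395). The part of these and of endothelial RNA in the OHC levels was not tested.

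Smad7, the inhibitory Smad that acts on both the TGF-beta and the BMP branch, was likewise highest in IHC replicate 1. The levels were 81.0, 3.49, 8.53, 5.06, 7.72 and 15.5 CPM in IHC replicates 1 to 6 and 12.96, 13.8, 12.9, 5.73, 15.2 and 17.6 CPM in OHC replicates 1 to 6. Apart from IHC replicate 1, the groups overlapped through IHC replicate 6 and OHC replicate 4, and the remaining OHC libraries lay above the remaining IHC libraries. The medians were 7.72 CPM in IHC replicates 2 to 6 and 13.4 CPM in OHCs. The log2 fold change was -0.63 (SE 0.66, 95% interval -2.02 to 0.76, edgeR adjusted p = 0.620), and without IHC replicate 1 its sign turned to 0.68 (95% interval -0.49 to 1.85, edgeR adjusted p = 0.536).

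Id1 had the same pattern of 1 high library. Its level was 54.5 CPM in IHC replicate 1 and 4.08, 3.27, 5.04, 9.28 and 2.42 CPM in replicates 2 to 6. In OHC replicates 1 to 6 it was 2.29, 5.06, 6.43, 11.7, 0.767 and 5.06 CPM, so OHCs spanned the values of the other 5 IHC libraries. The log2 fold change was -1.32 (SE 0.83, 95% interval -3.05 to 0.40, edgeR adjusted p = 0.371) with all libraries and 0.10 (95% interval -1.55 to 1.75, edgeR adjusted p = 0.963) without IHC replicate 1.

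Id2 was at 80.8, 23.6, 23.2, 36.9, 12.3 and 26.7 CPM in IHC replicates 1 to 6. It was at 18.4, 21.5, 28.5, 48.3, 18.9 and 25.7 CPM in OHC replicates 1 to 6. The medians, 25.2 and 23.6 CPM, were close, and the log2 fold change was -0.34 (SE 0.43, 95% interval -1.23 to 0.56, edgeR adjusted p = 0.691), turning to 0.12 without IHC replicate 1.

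Id3 varied widely within both cell types, with no library far above its group. Its level ran from 4.32 to 33.8 CPM in IHCs (median 16.1) and from 4.94 to 25.9 CPM in OHCs (median 11.9). The ranges overlapped almost wholly, giving a log2 fold change of -0.34 (SE 0.56, 95% interval -1.51 to 0.84, edgeR adjusted p = 0.769).

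Id4 was the most abundant Id gene and the steadiest member. Its level was 152, 141, 153, 140, 180 and 171 CPM in IHC replicates 1 to 6 and 178, 124, 187, 252, 270 and 187 CPM in OHC replicates 1 to 6. The coefficient of variation was 10.4% over IHC libraries and 26.8% over OHC libraries, against 57.2% to 202% and 30.7% to 105% for the other tested members. OHC replicates 3 to 6 lay above all IHC libraries, but the log2 fold change of 0.35 (SE 0.21, 95% interval -0.08 to 0.79) had an edgeR adjusted p of 0.341. The upper end of that interval, 0.79, is the largest difference it leaves.

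**Figure D2:**
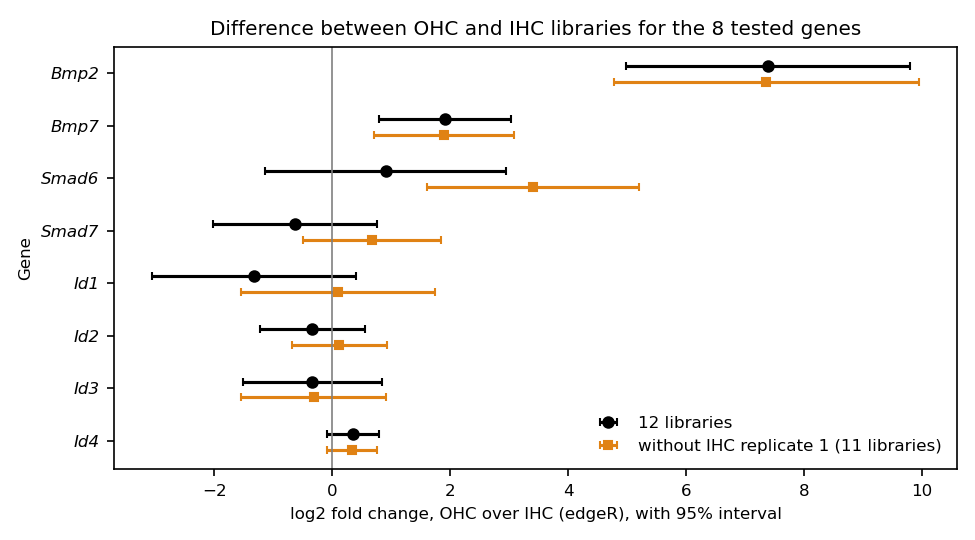
The log2 fold change of OHC over IHC (x axis) with its 95% interval for the 8 tested genes (y axis), with all 12 libraries (black) and without IHC replicate 1 (orange). Bmp2 stays near 7.39 in both fits, while Smad6 moves from 0.91 to 3.40 and Id1 from -1.32 to 0.10.

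By CPM, IHC replicate 1 was thus the highest IHC library for 4 of the 8 tested members, Smad6, Smad7, Id1 and Id2. Each was so by a gap past Dixon's 95% critical value for 6 samples. Over all tested genes it was the highest by such a gap for 8.25%, the highest share of any of the 12 libraries. In raw counts it held 443 of Smad6 against 25 to 70 in the other IHC libraries, 1239 of Smad7 against 143 to 570 and 834 of Id1 against 89 to 303. For Id2 its 1236 counts lay within the range of the others, 403 to 1466. Its place as the highest for Id2 holds only in CPM. In TPM, the level per length without ribosomal RNA used below, Id2 was at 74.0 in IHC replicate 1 and 76.0 in IHC replicate 4. By CPM, Bmp7, Id3 and Id4 in IHC replicate 1 lay within the range of the other IHC libraries. Id4 was below them in TPM (105.5 against 203 to 283) and in raw counts (2326 against 5552 to 6276). Among 8 immediate early genes, which respond quickly to signals and were added after seeing the values, Junb was at 158 CPM in IHC replicate 1 against at most 7.81 CPM in the other IHC libraries, and Fos at 81.4 against at most 17.4. Jun, at 2.03 CPM, and Dusp1, at 1.70 CPM, were below the other 5 IHC libraries. Their sum was 601 CPM, against 183 to 367 CPM in the other IHC libraries. Summed markers of inner hair cells (4284 CPM against 1834 to 2998 in the other IHC libraries), all hair cells (5522 against 4402 to 5201), spiral ganglion neurons (1203 against 529 to 904) and macrophages (19.6 against 1.75 to 13.9) were also above those of the other 5. Sums below the other 5 were those of supporting cells (259 CPM against 261 to 623), the greater epithelial ridge (578 against 637 to 1092), Schwann cells and glia (22.96 against 66.1 to 132), pericytes (9.94 against 17.8 to 45.6), OHC markers (2.16 against 3.37 to 23.5) and endothelium, while mesenchyme (47.2 against 44.6 to 70.1) lay within them. All these sums are in CPM and were not taken in TPM, where the place of IHC replicate 1 can differ, as for Id2. In CPM, 1 count was 0.0654 in IHC replicate 1 and 0.0244 to 0.0306 in the other IHC libraries. Counts that were not ribosomal RNA were 13565175 in IHC replicate 1 and 23351914 to 27710829 in the others. The part of these genes and cell types in the 4 members was not tested.

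**Figure D3:**
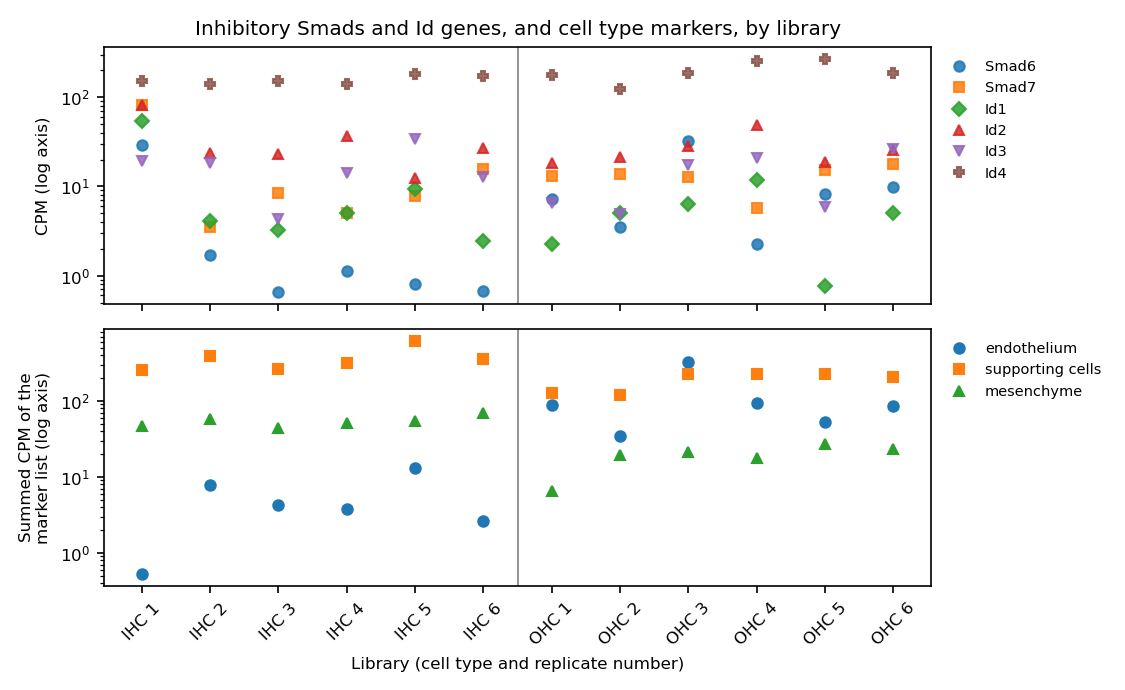
CPM of the inhibitory Smads and Id genes (upper panel) and the summed CPM of endothelial, supporting cell and mesenchyme markers (lower panel) in each of the 12 libraries (x axis), both on log axes. IHC 1 is the highest IHC library for Smad6, Smad7, Id1 and Id2, with the lowest endothelial sum of 0.523 CPM, and OHC 3 has the highest endothelial sum of 322 CPM.

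Levels of different genes were compared per length, as TPM, in which counts are divided by the length of the gene's exons, without ribosomal RNA. In IHCs the order by mean TPM was Id4 (216 ± 61.4), Id3 (58.8 ± 36.5), Id2 (53.8 ± 20.0), Id1 (31.8 ± 33.5), Smad7 (19.2 ± 18.6), Bmp7 (13.6 ± 10.1), Smad6 (5.96 ± 9.87), Nog (1.12 ± 2.06), Bmp2 (0.110 ± 0.190) and Bmp4 (0.0392 ± 0.0497), each as mean ± SD of 6. Id4 was above Id3 in 6 of 6 IHC libraries although the ranges over libraries overlap, and all other neighbours in this order overlap too. In OHCs the order was Id4 (309 ± 67.7), Bmp7 (60.3 ± 38.7), Id2 (55.4 ± 22.5), Id3 (54.8 ± 36.4), Smad6 (22.5 ± 25.7), Id1 (21.3 ± 15.01), Bmp2 (20.0 ± 12.6), Smad7 (19.7 ± 6.06), Bmp4 (1.04 ± 2.20) and Nog (0.641 ± 0.300). There the ranges of Id4 and Bmp7 did not overlap, nor did those of Smad7 and Bmp4, while all other neighbours overlapped. Bmp7 had rank 6 in IHCs and rank 2 in OHCs.

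Within the summed TPM of the 3 ligands, Bmp7 made up a median of 99.6% in IHC libraries (96.0% to 100%) and 83.0% in OHC libraries (46.1% to 87.2%). Bmp2 took a median of 0.266% in IHCs and 16.9% in OHCs (11.8% to 53.8%). The summed ligand level had a median of 11.1 TPM in IHCs and 70.7 TPM in OHCs. Within the summed TPM of the 4 Id genes, Id4 made up a median of 60.2% in IHCs (33.8% to 75.3%) and 67.5% in OHCs (62.2% to 86.5%). The summed Id level, with a median of 350 TPM in IHCs (309 to 438) and 443 TPM in OHCs (271 to 597), overlapped between the cell types. These shares restate the levels above and were not tested.

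**Figure D4:**
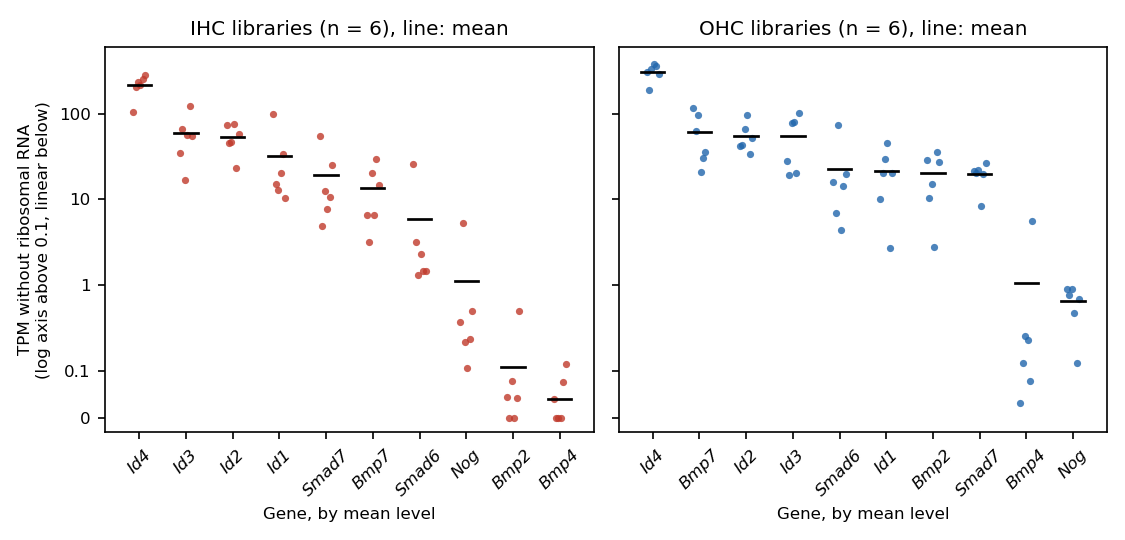
TPM without ribosomal RNA of the 10 genes in each of the 6 IHC libraries (left) and 6 OHC libraries (right), ordered along the x axis by mean level, which the black lines mark; the y axis is logarithmic above 0.1 TPM and linear below. Id4 leads both panels, at a mean of 216 TPM in IHCs and 309 TPM in OHCs, and Bmp2 moves from 0.110 TPM to 20.0 TPM.

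Genes whose pattern over the 12 libraries was most like that of a member were found by the root mean square difference of centred log2 CPM, where 0 would be an identical pattern. Bmp2 was nearest to Gm26902 (0.80) and Cyp2j12 (0.92), both with 0 counts in every IHC library, and then Aplnr (1.02), which encodes the apelin receptor. Bmp7 was nearest to Pkn3 (0.60), followed by Shld2 and Gm15751 (0.84 each). Smad6 was nearest to Pdgfa (0.67), Lamb1 (0.73) and Pafah1b3 (0.86), and Smad7 to Plekhg5 (0.46), Mical3 (0.52) and Gm11598 (0.53). Among the Id genes, Id1 was nearest to Src (0.56), Id2 to Cacybp (0.33), Id3 to Frg1 (0.50) and Id4 to Stt3b (0.17). No member was among the 3 nearest genes of another.

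A wider list of 82 other genes of BMP signalling, of the bHLH factors that Id proteins bind and of the TGF-beta and activin branch was followed in the same test. Of these, 52 were tested, 6 were IHC-enriched, 3 were OHC-enriched and 43 did not pass the threshold. Over all tested genes 3.81% were IHC-enriched and 2.44% OHC-enriched. Their median log2 fold change was -0.16, beside -0.04 over all tested genes. Of the 9 enriched genes, 6 were BMP ligands, co-receptors, regulators and targets and 3 (Smad3, Tgfb2 and Acvr1c) belonged to the TGF-beta and activin branch. The 9 held 0 of 6 tested BMP receptors and 0 of 4 BMP Smads, lists too short to tell 0 calls from the shares over all tested genes.

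Of 13 other BMP and GDF ligands, 3 passed the filter. Bmp6, of the same subgroup as Bmp7, was IHC-enriched, against the direction of Bmp7. Its level was 0.785, 2.96, 0.209, 0.151, 26.8 and 8.12 CPM in IHC replicates 1 to 6 and at most 0.496 CPM in OHC libraries, giving a log2 fold change of -5.03 (SE 1.39, edgeR adjusted p = 0.0346). IHC replicate 5 held most of it. The call was lost without IHC replicate 5 or 6 or without any 1 of OHC replicates 2 to 6 (-3.63 to -5.25, edgeR adjusted p = 0.0511 to 0.119). Its exons share 5.77% of their bases with the antisense gene Txndc5, which had up to 3321 counts. Bmp3 (56.4 ± 13.96 CPM in IHCs and 70.0 ± 25.2 in OHCs) and Gdf11 (55.2 ± 22.1 and 36.7 ± 17.9) had edgeR adjusted p of 0.566 and 0.365.

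None of the 6 tested BMP receptors passed the threshold, and the intervals below bound the differences of the 2 described. The type I receptor Bmpr1a was at 109 ± 31.3 CPM in IHCs and 120 ± 22.3 in OHCs, giving a log2 fold change of 0.14 (95% interval -0.36 to 0.64). The type II receptor Bmpr2 was at 244 ± 68.5 and 310 ± 58.9 CPM, giving a log2 fold change of 0.34 (95% interval -0.12 to 0.81). Acvrl1, a receptor of endothelium, did not pass the filter. It had 0 counts in all IHC libraries and 20, 0, 228, 59, 4 and 9 counts in OHC replicates 1 to 6. The mean OHC level, 1.45 CPM, was at least 14.5-fold higher against the floor of 3 counts per library, which does not hold for each OHC library. Acvrl1 was OHC-enriched in the fit without the filter (edgeR adjusted p = 0.0203) and by DESeq2 (adjusted p = 2.61e-04). OHC replicate 3, with the highest endothelial sum, held most of its counts, and the part of endothelial RNA in it was not tested. Smad4, the shared partner Smad, was at 69.2 ± 43.7 and 58.9 ± 11.7 CPM, giving a log2 fold change of -0.23 that turned to 0.14 without IHC replicate 1.

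Among co-receptors, Rgma was IHC-enriched and Eng OHC-enriched. Rgma, a membrane-anchored BMP co-receptor, was at 66.6, 33.3, 4.27, 9.90, 106 and 37.8 CPM in IHC replicates 1 to 6. It was at 9.03, 6.55, 2.96, 14.8, 0.901 and 0.773 CPM in OHC replicates 1 to 6, giving a log2 fold change of -2.88 (SE 0.77, edgeR adjusted p = 0.0284). The call was lost without IHC replicate 5 or OHC replicate 2, 3, 5 or 6 (-2.41 to -2.94, edgeR adjusted p = 0.0529 to 0.0816). Eng (endoglin), known from endothelium, had 13 counts in IHC replicate 2 and 0 in the other IHC libraries, and 14 to 246 counts in OHC libraries, giving a log2 fold change of 5.35 (SE 1.42, edgeR adjusted p = 0.0278). It moved with the endothelial markers above, whose part was not tested, and its call was lost without IHC replicate 1, 3, 4, 5 or 6 or OHC replicate 3 or 6 (4.88 to 5.17, edgeR adjusted p = 0.0512 to 0.0633). Its exons share 11.03% of their bases with antisense Fpgs.

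Of 5 tested extracellular regulators, 0 passed the threshold with all 12 libraries. Twsg1, which modulates the binding of chordin to BMPs, was the most abundant per length (159 TPM in IHCs and 192 TPM in OHCs). Chrd (chordin), a secreted antagonist described here after its values were seen, was at 1.70, 0, 0.131, 0.101, 0.0306 and 0.0545 CPM in IHC replicates 1 to 6. It was at 6.92, 1.37, 0.923, 0.145, 6.04 and 5.55 CPM in OHC replicates 1 to 6, all above IHC replicates 2 to 6. The log2 fold change was 3.43 (95% interval 0.71 to 6.15, edgeR adjusted p = 0.127) with all libraries and 5.70 (edgeR adjusted p = 0.0163) without IHC replicate 1, the 1 of 12 such fits in which it was OHC-enriched, and DESeq2 called it with all libraries (adjusted p = 0.0273). Of 8 intracellular regulators, Fkbp1a alone was OHC-enriched. It encodes FKBP12, which holds type I receptors inactive until a ligand binds, and was at 58.0 to 201 CPM in IHCs and 135 to 331 CPM in OHCs, giving a log2 fold change of 0.98 (SE 0.28, edgeR adjusted p = 0.0413). The call was lost without IHC replicate 3, 4 or 5 or OHC replicate 1, 3, 4, 5 or 6 (0.89 to 1.02, edgeR adjusted p = 0.0501 to 0.0909). Tob1, which is known to restrain BMP Smads, led this list per length, at 234 TPM in IHCs and 310 TPM in OHCs, with an edgeR adjusted p of 0.861. Ski, a co-repressor of Smads, had a log2 fold change of -1.10 with all libraries (edgeR adjusted p = 0.0705). It was IHC-enriched with all libraries by edgeR's exact test (adjusted p = 0.0378) and in the fit without the filter (edgeR adjusted p = 0.0402), and not by DESeq2 (adjusted p = 0.0552). It was also IHC-enriched without IHC replicate 2 (-1.29, edgeR adjusted p = 0.0202) or 4 (-1.24, edgeR adjusted p = 0.0451). Ppm1a, a phosphatase of Smads, was OHC-enriched without IHC replicate 6 (0.80, edgeR adjusted p = 0.0475). Both are described after their values were seen.

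Of 8 other genes known as BMP targets, 4 were tested and 2 were IHC-enriched. Msx1, a homeobox gene, was at 8.31, 6.40, 5.496, 3.38, 14.9 and 1.44 CPM in IHC replicates 1 to 6, while OHC libraries held 1 count in all. Against the floor of 3 counts per library the mean IHC level was at least 80.5-fold higher (edgeR adjusted p = 6.91e-05). Gata3, a transcription factor needed for the development of the ear, ran from 279 to 661 CPM over IHCs and from 111 to 178 CPM over OHCs, and the log2 fold change was -1.50 (SE 0.23, edgeR adjusted p = 3.55e-04). Both held in all 12 fits that left out a library, and for both every IHC library lay above every OHC library, as for 2.37% of all tested genes. Of the members, 0 had that pattern. Summed markers of other cells were also higher in IHC than in OHC libraries, at 259 to 623 against 120 to 230 CPM for supporting cells (2 of 8 tested markers IHC-enriched), 578 to 1092 against 71.8 to 417 CPM for the greater epithelial ridge (1 of 2), 529 to 1203 against 127 to 304 CPM for spiral ganglion neurons (2 of 3) and 44.6 to 70.1 against 6.62 to 27.4 CPM for mesenchyme (0 of 7). For Schwann cells and glia (0 of 4) the sums overlapped, with medians of 78.1 CPM in IHCs and 23.7 CPM in OHCs, as did those of macrophages, at 6.83 and 0.979 CPM. Their part in the IHC-enriched genes was not tested.

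Of 9 bHLH genes that Id proteins bind or act beside, 8 were tested and 0 passed the threshold. Atoh1, part of the reporter by which the cells were sorted, was at 226 to 541 CPM in IHCs and 162 to 245 CPM in OHCs, giving a log2 fold change of -0.63 (SE 0.22, edgeR adjusted p = 0.0957). Its highest library by CPM was again IHC replicate 1, at 541 CPM. In TPM that library was at 814, against 704 to 1056 in the other IHC libraries.

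In the TGF-beta and activin branch, 2 genes were IHC-enriched and 1 OHC-enriched of 11 tested. Smad3, which carries TGF-beta and activin signals, was at 111, 149, 161, 126, 220 and 115 CPM in IHC replicates 1 to 6 and at 12.7, 6.13, 11.1, 17.9, 0.867 and 14.5 CPM in OHC replicates 1 to 6. The groups were far apart, giving a log2 fold change of -3.80 (SE 0.48, edgeR adjusted p = 4.94e-05). Smad3 lies on the same chromosome and strand as Smad6, at chr9:63554049-63665476. The ligand Tgfb2 was at 250 to 371 CPM in IHCs and 53.5 to 259 CPM in OHCs, giving a log2 fold change of -0.95 (SE 0.28, edgeR adjusted p = 0.0459). Its call held in 2 of 12 fits that left out a library, those without IHC replicate 1 or OHC replicate 4, and the other 10 gave -0.78 to -0.99 with edgeR adjusted p = 0.0518 to 0.0944. The type I receptor Acvr1c was at 0.0244 to 4.39 CPM in IHCs and 8.82 to 65.0 CPM in OHCs, giving a log2 fold change of 3.87 (SE 0.91, edgeR adjusted p = 0.0138), and its call held in all 12 fits. Acvr1b, another type I receptor, described after its values were seen, was IHC-enriched without IHC replicate 1 (-1.32, edgeR adjusted p = 0.0182). With all libraries it did not pass the threshold in the main fit (edgeR adjusted p = 0.0936), and DESeq2 called it IHC-enriched (-1.10, adjusted p = 0.0373).

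**Figure D5:**
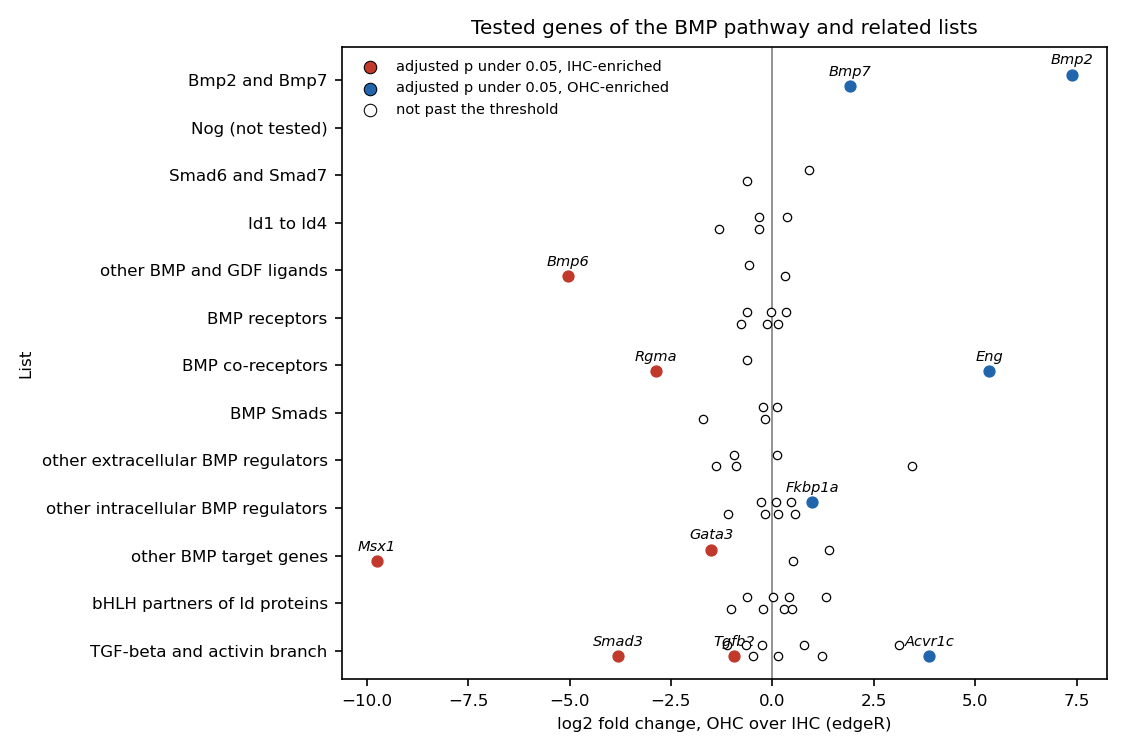
The edgeR log2 fold change of OHC over IHC (x axis) of each tested gene of the 13 lists (y axis), with genes past an adjusted p of 0.05 filled and named, red for IHC-enriched and blue for OHC-enriched. Bmp2 at 7.39 and Msx1 are the ends of the range, receptors and BMP Smads hold no filled point, and the position of Msx1 depends on the prior count because OHC libraries hold 1 count of it.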

How the data were processed

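The files the authors deposited hold HTSeq counts for each gene that were not normalized. Per the labels and the study's methods, reads were trimmed with Trimmomatic, aligned with STAR in 2 passes to GRCm39 and counted with HTSeq in its intersection-nonempty mode on GENCODE vM27, and the versions and strand setting are not given in the sources used here. If strand was ignored, reads from a gene and an overlapping antisense gene cannot be told apart. Ribosomal RNA was depleted and cDNA amplified from random hexamers, with no molecular identifiers, so counts include amplified copies.

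The 5 HTSeq summary lines were left out, and reads with no feature made up 9.32% to 15.9% of all lines in IHC libraries and 13.8% to 33.3% in OHC libraries. Counts on genes ran from 29564827 to 44017309 per library, of which 13565175 to 29088104 were not ribosomal RNA. Genes passed edgeR's filterByExpr (minimum count 10, minimum total 15), libraries were scaled by TMM, and OHCs were compared with IHCs with glmQLFit and glmQLFTest (edgeR 4.0.16, R 4.3.3), with Benjamini-Hochberg adjustment over 13269 genes and a threshold of 0.05. The standard error is the log2 fold change divided by the square root of F. TPM used the union of exons in GENCODE vM39, which matched 98.8% of genes, after ribosomal RNA genes were left out. The floor was 3 counts per library, and nearest genes used log2 CPM with a prior count of 2. Bmp4 and Nog, which the filter removed, are reported from the fit without the filter. Alternatives were DESeq2 1.42.0, edgeR's exact test, RLE scaling, removal of ribosomal RNA genes, no filter, a strict filter (at least 10 counts in every library), a replicate block and each library left out.

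The members and gene lists were chosen with earlier results of these data known. Named genes are the 10 members, the listed pathway genes past the threshold or with the highest mean TPM of their list, the 3 tested genes nearest to each tested member, and markers that moved with a member. Nothing in the labels ties a library to particular animals, so p-values measure the spread between these pools.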

Additional observations from a re-analysis of the deposited data

Results flagged for a closer look

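Of 52 groups of 6 libraries checked by Dixon's test at its 95% critical value, 13 held a library far above the other 5. Chance alone would flag about 1 group in 20, but over all 13269 tested genes 21.6% of IHC groups and 15.9% of OHC groups held such a library, and the 13 of 52 are to be read against these shares. Of the 13, 6 were IHC replicate 1: Smad6 at 29.0 CPM, Smad7 at 81.0 CPM, Id1 at 54.5 CPM, Id2 at 80.8 CPM, Tob1 at 206 CPM and Atoh1 at 541 CPM. The check used CPM. In TPM, IHC replicate 1 was not the highest IHC library for Id2 (74.0 against 76.0), Tob1 (235 against 298) or Atoh1 (814 against 1056). The other members flagged were Bmp2 in IHC replicate 6 (0.300 CPM, 11 counts), Bmp4 in OHC replicate 6 (4.07 CPM, 174 counts), Nog in IHC replicate 2 (1.37 CPM, 56 counts), Smad6 in OHC replicate 3 (32.3 CPM) and Id2 in OHC replicate 4 (48.3 CPM). Among other pathway genes, Bmp6 in IHC replicate 5 (26.8 CPM) and Eng in IHC replicate 2 (0.318 CPM, 13 counts) were far above their groups. The 52 groups share 12 libraries, so that flags in 1 library are not independent of each other.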

How the results depend on the processing

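Alternatives other than leaving out 1 library in turn gave 65 values of the members' log2 fold changes. Of these, 60 kept their direction without crossing the threshold, as did 123 of 132 among the other named pathway genes. The DESeq2 values of Id1, Smad7, Nog and Bmp4, which had no p-value, were counted as kept. Both totals include the fit without 2 libraries that follows. The fit without the 2 libraries that stand apart, IHC replicate 1 and OHC replicate 3, was chosen after seeing the data. In it, 1 member (Bmp2) was OHC-enriched in place of 2, 2 genes of the whole pathway list, members included, were in place of 5, Bmp7 fell below the threshold at 1.75 (edgeR adjusted p = 0.106), and the signs of Smad7 (0.69), Id1 (0.045), Id2 (0.11), Smad4 (0.14) and Bmpr1a (-0.036) turned. Under the strict filter, which removed Bmp2, 1 member and 2 pathway genes were OHC-enriched. DESeq2 called 11 pathway genes OHC-enriched. Over all genes, 506 were IHC-enriched and 324 OHC-enriched, against 1339 and 1590 with DESeq2, 893 and 918 without the filter, and 751 and 519 with the exact test. Apart from the filter, which removes genes, the cause was not tested.

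With each library left out in turn, 369 to 551 genes were IHC-enriched and 225 to 402 OHC-enriched, with 0 members IHC-enriched in every fit and 1 to 2 OHC-enriched, and with 3 to 7 and 2 to 5 pathway genes. The log2 fold changes ran over 7.06 to 8.79 for Bmp2, 1.65 to 2.26 for Bmp7, 0.089 to 3.40 for Smad6, -0.86 to 0.68 for Smad7, -1.77 to 0.10 for Id1, -0.60 to 0.12 for Id2, -0.63 to -0.04 for Id3 and 0.25 to 0.45 for Id4. For Bmpr1a they ran over -0.0054 to 0.22, for Smad4 over -0.38 to 0.14 and for Tob1 over -0.0025 to 0.36. Of the signs that turned, those of Smad7, Id1, Id2, Bmpr1a and Smad4 turned without IHC replicate 1 and that of Tob1 without OHC replicate 2.

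Replicate numbers are shared by the IHC and OHC labels, but nothing in the labels ties equal numbers to shared animals. The correlations of their deviations from the group means over genes were -0.0313 to 0.0184 over 6 pairs. Such correlations cannot show whether equally numbered pools came from the same animals, and the pools were treated as unpaired. With the replicate block, 512 genes were IHC-enriched and 391 OHC-enriched, Bmp2 and Bmp7 kept their calls, and Smad7 turned to 0.30. The block ended the calls of Bmp6 (-3.47, edgeR adjusted p = 0.363) and Rgma (-2.81, edgeR adjusted p = 0.0627), and in it Tgfbr2 was OHC-enriched (4.45, edgeR adjusted p = 0.0407). Tgfbr2 was also OHC-enriched by DESeq2 (adjusted p = 0.0104) and by edgeR's exact test (adjusted p = 0.0307), and not in the main fit (edgeR adjusted p = 0.0877). Counting noise limits Bmp4 and Nog, each at 9 counts or fewer in 11 of 12 libraries.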
